A study of Homo sapiens with 6 samples.

Results

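The genes described here are 45 genes that act in G2 phase and mitosis, chosen by name, with the kinesin motors left out. All 45 symbols matched 1 gene ID each among the 69292 IDs in the count table, and all 45 were among the 21223 genes with enough counts to be tested. They were measured by RNA sequencing in MDA-MB-231 cells, an established line of human breast cancer classed as triple-negative, without estrogen or progesterone receptors or excess HER2. Ridaforolimus-resistant cells (2 libraries) were a derivative held for months in 30 µM ridaforolimus, everolimus-resistant cells (2 libraries) were a derivative held likewise in 20 µM everolimus, and parental cells (2 libraries) had no drug by the protocol, although a treatment field gives them DMSO. Both drugs are analogs of rapamycin that inhibit the mTOR kinase, a driver of cell growth and of entry into the cell cycle. Each resistant group is a single derivative with the drug still present at harvest, by the labels, so selected resistance, drug exposure and drift in culture cannot be told apart. The labels do not say whether the 2 libraries of a group came from separate cultures, so each p-value measures only the spread between these libraries, which may be technical.

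Mitosis is started by CDK1 bound to cyclin A2 or B, after CDC25 phosphatases remove the inhibitory phosphates that WEE1 places on CDK1. Polo-like and Aurora kinases then build the spindle, the kinetochore and its checkpoint hold back the anaphase-promoting complex (APC/C) until each chromosome is attached, and CDC20 with UBE2C lets the complex destroy cyclin B and securin. Most of these genes are transcribed in a wave in G2 under B-MYB, FOXM1 and the MuvB complex, and in G0 the DREAM complex holds them off. In a growing line such as this one their RNA in a bulk sample depends on how many cells are in G2 and M. A smaller share of such cells and less RNA per cell cannot be told apart in these data.

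Many members share short sequences in front of their start sites. MuvB complexes bind the cell-cycle homology region (CHR), for which only the letters TTTGAA were searched, and the CCAAT box binds NF-Y. Variants of the CHR were not searched, so a window without TTTGAA may still hold a CHR. Sequences come from RefSeq (GRCh38.p14), whose promoter windows run from 250 bases before to 50 after each start site and matched 38 of the 45 members. Both motifs were searched on both strands. TTTGAA was found in the windows of 29 of 38 members (76.3%), against 18.2% of all 27305 genes with a window, CCAAT in 30 of 38 (78.9%) against 39.7%, and both in 23 of 38 (60.5%) against 8.37%. A TTTGAA that began within the last 60 bases before the start was present in 18 of 38 members (47.4%), against 3.79% of all genes. A match describes the letters only, and it does not show that a factor binds there.

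The 250 bases before the start are shown 5′ to 3′ for both B cyclins, for PLK1 and MKI67, in which the 2 motifs lie close to the start, and for CDC25B, whose levels differed most between the groups relative to its replicates. CCNB1 is at chr5:69166900-69167149 (plus strand), CCNB2 at chr15:59104896-59105145 (plus), PLK1 at chr16:23678639-23678888 (plus), MKI67 at chr10:128126424-128126673 (minus), and CDC25B at chr20:3795539-3795788 (plus), which is 1 of its 4 windows. Capitals mark TTTGAA and CCAAT, or their reverse complements TTCAAA and ATTGG.
CCNB1: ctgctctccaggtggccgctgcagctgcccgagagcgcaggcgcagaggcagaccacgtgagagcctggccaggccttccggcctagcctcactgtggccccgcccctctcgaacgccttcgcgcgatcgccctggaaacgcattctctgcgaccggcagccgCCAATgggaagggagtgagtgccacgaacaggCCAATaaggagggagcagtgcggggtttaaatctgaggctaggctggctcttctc
CCNB2: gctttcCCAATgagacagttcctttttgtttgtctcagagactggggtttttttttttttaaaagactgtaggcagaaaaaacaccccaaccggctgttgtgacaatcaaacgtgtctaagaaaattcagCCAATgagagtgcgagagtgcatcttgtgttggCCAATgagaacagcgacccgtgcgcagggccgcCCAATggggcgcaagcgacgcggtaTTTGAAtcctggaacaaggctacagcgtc
PLK1: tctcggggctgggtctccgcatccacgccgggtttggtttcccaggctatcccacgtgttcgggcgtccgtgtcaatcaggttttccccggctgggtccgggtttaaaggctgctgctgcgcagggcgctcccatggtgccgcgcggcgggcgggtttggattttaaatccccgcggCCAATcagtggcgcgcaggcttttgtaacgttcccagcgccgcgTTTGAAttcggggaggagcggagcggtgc
MKI67: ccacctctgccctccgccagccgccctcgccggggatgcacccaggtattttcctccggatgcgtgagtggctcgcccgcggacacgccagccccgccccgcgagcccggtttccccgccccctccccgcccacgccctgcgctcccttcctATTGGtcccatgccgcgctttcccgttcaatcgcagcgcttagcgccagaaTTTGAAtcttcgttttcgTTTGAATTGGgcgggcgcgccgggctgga
CDC25B: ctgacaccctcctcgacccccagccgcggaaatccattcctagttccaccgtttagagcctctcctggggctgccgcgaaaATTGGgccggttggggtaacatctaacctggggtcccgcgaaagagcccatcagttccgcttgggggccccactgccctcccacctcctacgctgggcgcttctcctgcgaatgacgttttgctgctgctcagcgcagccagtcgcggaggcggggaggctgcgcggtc
CCNB2 and PLK1 each have TTTGAA beginning 29 bases before the start, with a CCAAT box 54 and 73 bases before it. MKI67 has TTTGAA at 47 and at 29 bases, and the second runs into a reverse CCAAT box at 24 bases. The CCNB1 window has 2 CCAAT boxes and no TTTGAA, and the 4 windows of CDC25B have none either. Members are compared next by the letters TTTGAA only, which does not separate those with a CHR from those lacking it. The 29 members with TTTGAA and the 9 without it had nearly the same levels by library: their medians of log2 CPM (counts scaled to library size), each gene centred on its own mean over the 6 libraries, were 0.28 and 0.20 in ridaforolimus replicate 1, -0.80 and -0.83 in ridaforolimus replicate 2, -0.25 and -0.29 in everolimus replicate 1, 0.51 and 0.60 in everolimus replicate 2, -0.10 and -0.01 in parental replicate 1, and 0.29 and 0.41 in parental replicate 2.

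The libraries held 13134567 and 13451139 counts in ridaforolimus-resistant cells, 13141320 and 15556246 in everolimus-resistant cells, and 13512908 and 14524155 in parental cells. The 10 identity markers of the line summed to 969 to 1241 CPM in ridaforolimus, 711 to 1104 in everolimus and 712 to 756 in parental libraries, with VIM the highest of them in every library, while the estrogen receptor gene ESR1 stayed below 1 CPM. The 13 markers of blood, vessel, stromal and basal cells summed to 12.7 to 27.4, 14.7 to 22.1 and 21.8 to 26.0 CPM, with 5, 4 and 3 of them at 0 in both libraries of the group; their part in the results was not tested.

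The G2/M genes moved together, and 42 of the 45 had more of their variance within the groups than between them. Their median centred log2 CPM was 0.22 and -0.80 in the ridaforolimus libraries, -0.28 and 0.53 in the everolimus libraries, and -0.06 and 0.32 in the parental libraries, while the median of all tested genes stayed between -0.00 and 0.02 in each. Library scaling itself holds the median of all genes near 0. For genes with a mean of 10 CPM or more the median ran from -0.07 in ridaforolimus replicate 2 to 0.06 in parental replicate 2. By the members' medians ridaforolimus replicate 2 was low and everolimus replicate 2 high, and the parental libraries lay between them. Of the 45 members 38 had their lowest level in ridaforolimus replicate 2 and 29 their highest in everolimus replicate 2, and none was above its own mean in ridaforolimus replicate 2. The 45 together took 7707 and 4167 CPM in ridaforolimus, 5681 and 9751 CPM in everolimus, and 6520 and 8267 CPM in parental libraries.

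**Figure D1:**
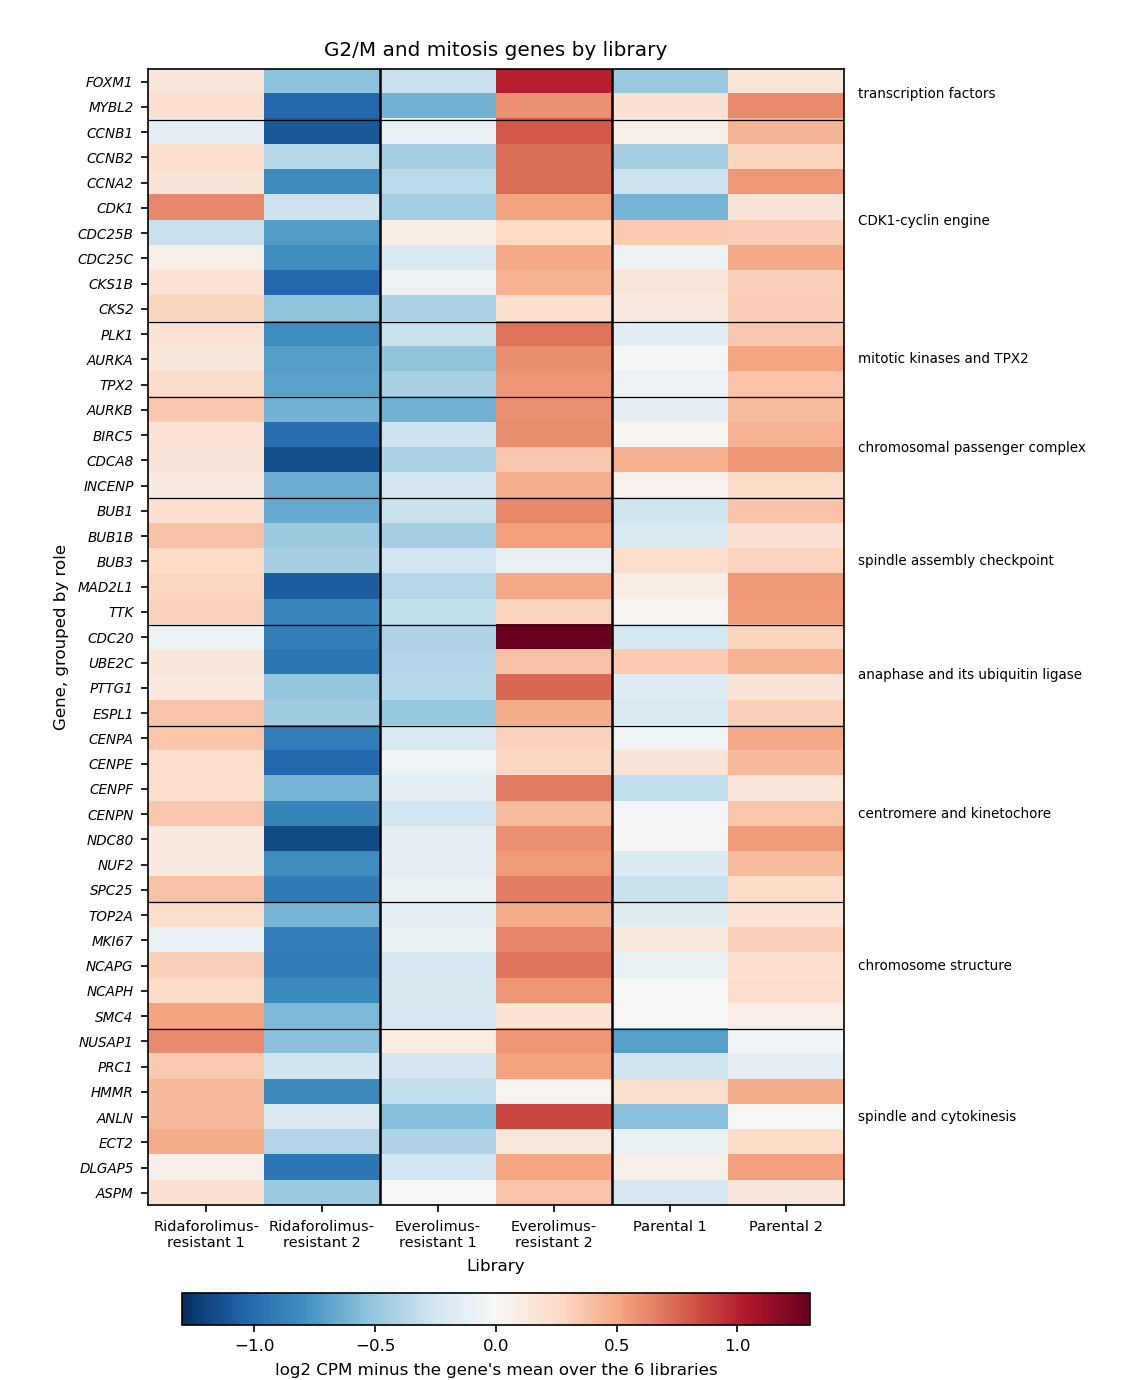
Log2 CPM of each of the 45 members (rows, grouped by role) minus the gene's mean over the 6 libraries, for the ridaforolimus-resistant, everolimus-resistant and parental libraries (columns); blue is below and red above the mean. Whole columns share a colour: ridaforolimus replicate 2 is blue in all 45 rows and everolimus replicate 2 is red in 44.

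Within the ridaforolimus group replicate 1 exceeded replicate 2 for 45 of 45 members, by 1.35 to 2.55 times with a median of 1.92. Everolimus replicate 2 exceeded replicate 1 for 45 of 45, by 1.11 to 3.19 times with a median of 1.70, and parental replicate 2 exceeded replicate 1 for 44 of 45, with a median of 1.34. Among all genes whose mean reached 10 CPM, the share with the same replicate higher was 56.6%, 57.6% and 54.8% in the 3 groups. The groups accounted for a median of 22.8% of a member's variance over the 6 libraries (0.958% for the least and 87.9% for CDC25B), against 53.3% over all genes at 10 CPM or more. Only CDC25B (87.9%), MKI67 (55.8%) and CCNB1 (53.9%) had more than 50% between the groups. As a description, the median correlation over the 990 pairs of members was 0.86 across the 6 libraries, which share their depth and scaling. For nearly all members replicate 2 was thus the higher in everolimus-resistant and parental cells and the lower in ridaforolimus-resistant cells, and the labels do not say that a number marks a shared culture or day.

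In ridaforolimus-resistant against parental cells, 39 of 45 members had an estimate below 0. So did 48.7% of all tested genes and 57.7% of those with a mean of 10 CPM or more. The members' median log2 fold change was -0.32, against 0.01 for all genes and -0.07 at 10 CPM or more. None passed an adjusted p of 0.05 in edgeR's quasi-likelihood test, the share for all genes being 0.32%. One member, CDC25B, had an unadjusted p under 0.05, a level that 14.5% of all genes reached; DESeq2 called 1 member and limma-voom 0. Both ridaforolimus libraries lay below both parental libraries for 6 members, CDC25B, CCNB1, CDCA8, MKI67, UBE2C and DLGAP5, which is 13.3% of the members, where 24.3% of all genes did so, and for 0 members did they lie above (25.1% of all genes, or 49.4% in either direction). The median was -0.96 without ridaforolimus replicate 1, with 44 members below 0, and 0.08 without ridaforolimus replicate 2, with 19 below 0. It was -0.53 without parental replicate 1 and -0.10 without parental replicate 2.

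In everolimus-resistant against parental cells the members were split, with 24 of 45 below 0 (47.6% of all genes, 53.1% at 10 CPM or more). Their median was -0.0049, against 0.02 for all genes and -0.02 at 10 CPM or more. None passed in edgeR's test, DESeq2 or limma-voom (0.00471% of all genes passed in edgeR's), and 0 had an unadjusted p under 0.05, which 8.79% of all genes had. Both everolimus libraries were above both parental ones for 1 member, NUSAP1 (20.6% of all genes), and below them for 4, CDC25B, CDCA8, BUB3 and HMMR (20.5%, or 41.1% of all genes in either direction). The split depended on the library: the median was 0.41 without everolimus replicate 1 and -0.42 without everolimus replicate 2, with 8 and 43 members below 0, and it was -0.15 without parental replicate 1 and 0.24 without parental replicate 2.

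Ridaforolimus-resistant against everolimus-resistant cells compared the derivatives of both drugs. Of the 45 members 39 were below 0 (51.7% of all genes, 55.4% at 10 CPM or more). Their median was -0.37, against -0.02 for all genes and -0.05 at 10 CPM or more. None passed in edgeR's test, DESeq2 or limma-voom (0.744% of all genes passed in edgeR's), and 3, CDC25B, CCNB1 and MKI67, had an unadjusted p under 0.05 (14.1% of all genes). In those same 3 both ridaforolimus libraries were below both everolimus libraries (20.4% of all genes), and in 0 members were they above (20.9%, or 41.2% in either direction). Leaving out ridaforolimus replicate 1 gave a median of -0.97 and leaving out replicate 2 gave 0.03, while the fits that lacked everolimus replicate 1 or 2 gave -0.76 and 0.10. This comparison shares its ridaforolimus libraries with the first one and its everolimus libraries with the second, so the counts are not independent.

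**Figure D2:**
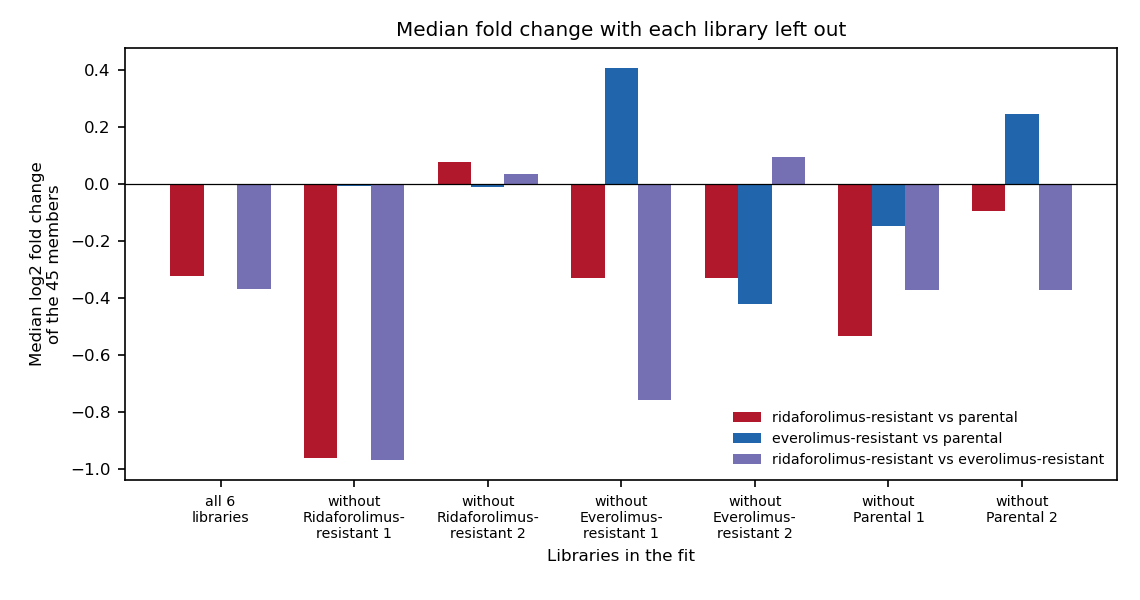
Median log2 fold change of the 45 members (vertical axis) in the fit of all 6 libraries and with each library left out in turn, for ridaforolimus-resistant against parental (red), everolimus-resistant against parental (blue) and ridaforolimus-resistant against everolimus-resistant cells (purple). Each comparison has medians on both sides of 0, such as -0.96 and 0.08 for ridaforolimus against parental cells.

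**Figure D3:**
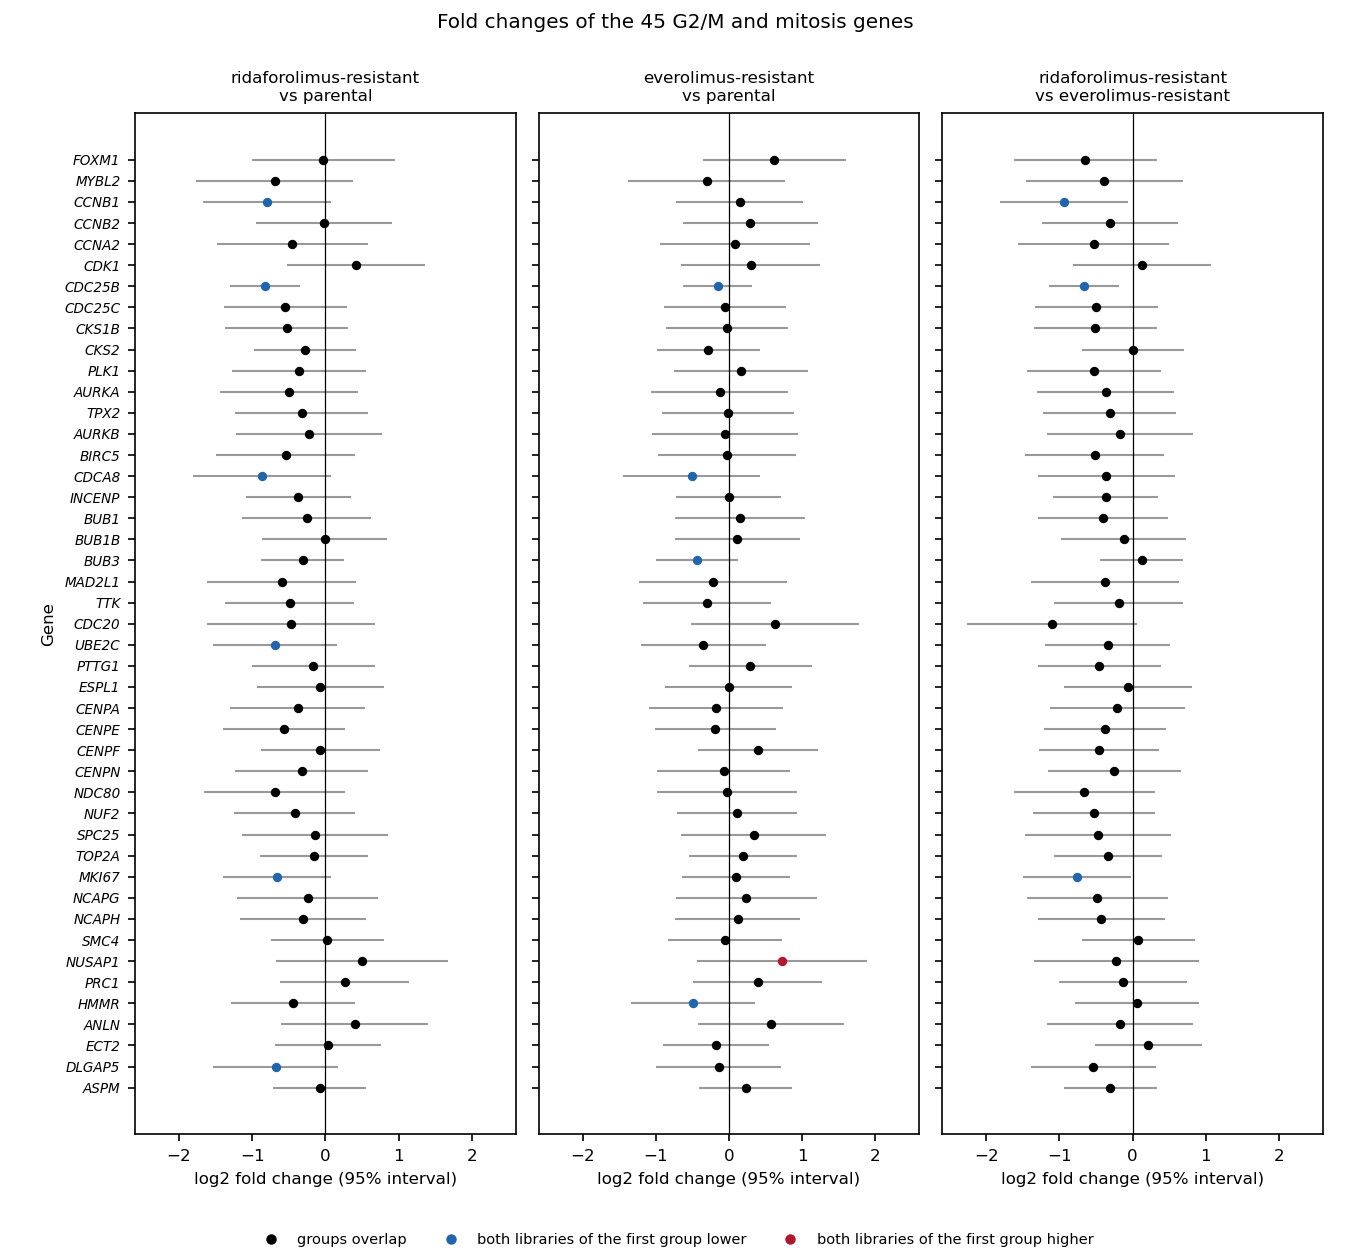
Log2 fold change of each member with its 95% interval from edgeR in the 3 comparisons, genes grouped by role; coloured points have both libraries of the first group lower (blue) or higher (red) than both of the second. The intervals that leave out 0 belong to CDC25B in both ridaforolimus comparisons and to CCNB1 and MKI67 against everolimus-resistant cells.

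Of the transcription factors, FOXM1, which drives the G2 wave, stood at 121 and 75.3 CPM in ridaforolimus, 88.9 and 217 CPM in everolimus, and 77.8 and 122 CPM in parental libraries. The high value is everolimus replicate 2 and the groups overlap. Its estimate in everolimus-resistant against parental cells was 0.62 ± 0.43 (log2, SE; adjusted p = 0.726, edgeR's quasi-likelihood test), and -0.17 without everolimus replicate 2. MYBL2, which encodes B-MYB, had 124 and 52.2 CPM in ridaforolimus, 69.5 and 161 CPM in everolimus, and 122 and 162 CPM in parental libraries. Its low value in ridaforolimus replicate 2 lies outside the parental range and its value in replicate 1 inside it. On the opposite strand ITFG2, with 215 to 391 counts, overlaps 781 exonic bases of FOXM1, and reads of such partners cannot be told apart because the strand setting of the counting is not given.

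Of the 8 genes for CDK1, its cyclins, CDC25 phosphatases and CKS subunits, CCNB1 and CDC25B were those whose groups did not overlap in at least 1 comparison. The share of the 8 was 25% in ridaforolimus-resistant against parental and 12.5% in everolimus-resistant against parental cells. It was 25% in ridaforolimus-resistant against everolimus-resistant cells. Among all genes the shares were 49.4%, 41.1% and 41.2%. CCNB1 (ENSG00000134057; GENCODE 29, GRCh38, chr5:69167010-69178245), cyclin B1, had 167 and 84.8 CPM in ridaforolimus, 169 and 314 CPM in everolimus, and 191 and 246 CPM in parental libraries. Both ridaforolimus libraries were below all 4 others, the higher of them by little. Its log2 fold change was -0.79 ± 0.38 against parental cells (adjusted p = 0.382) and -0.94 ± 0.38 against everolimus-resistant cells (adjusted p = 0.325), both by edgeR's quasi-likelihood test. CDC25B (ENSG00000101224, chr20:3786772-3806121), a phosphatase that activates CDK1 at entry into mitosis, had 128 and 94.6 CPM in ridaforolimus, 167 and 187 CPM in everolimus, and 198 and 195 CPM in parental libraries. No library of one group reached the range of another. Its log2 fold change was -0.82 ± 0.21 in ridaforolimus-resistant against parental cells (unadjusted p = 0.00404, adjusted p = 0.155, edgeR's quasi-likelihood test), -0.15 ± 0.21 in everolimus-resistant against parental cells (adjusted p = 0.875) and -0.67 ± 0.21 in ridaforolimus-resistant against everolimus-resistant cells (adjusted p = 0.207). DESeq2 gave -0.83 for the first, with adjusted p = 0.0377, and edgeR without the low-count filter gave adjusted p = 0.0236, so the call depends on the tool and the filter; leaving out 1 library gave -1.06 to -0.61.

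CDK1 (ENSG00000170312, chr10:60778331-60794852), the mitotic kinase itself, had 151 and 81.0 CPM in ridaforolimus, 71.9 and 141 CPM in everolimus, and 64.2 and 110 CPM in parental libraries. The 3 ranges overlap. Its log2 fold changes were 0.42 ± 0.41 (adjusted p = 0.686, edgeR's quasi-likelihood test) in ridaforolimus-resistant against parental, 0.29 ± 0.41 (0.881) in everolimus-resistant against parental and 0.12 ± 0.41 (0.929) in ridaforolimus-resistant against everolimus-resistant cells. They turned to -0.11 for the first without ridaforolimus replicate 1, to -0.28 and -0.04 for the second without everolimus replicate 2 and without parental replicate 1, and to -0.40 and -0.29 for the last without ridaforolimus replicate 1 and without everolimus replicate 1. CCNA2, cyclin A2, had 82.5 and 41.4 CPM in ridaforolimus, 57.4 and 122 CPM in everolimus, and 60.5 and 109 CPM in parental libraries, with overlap between all groups. CKS1B and CKS2 encode small subunits that dock CDKs on their substrates. CKS1B had 97.7 and 42.4, 81.6 and 118, and 96.0 and 106 CPM in ridaforolimus, everolimus and parental libraries, and CKS2 had 83.7 and 47.8, 51.7 and 79.4, and 74.1 and 85.4 CPM. In both genes ridaforolimus replicate 1 is within the parental range, while replicate 2 is the lowest of the 6. CDC25C, another CDK1 phosphatase, ran from 12.3 CPM in ridaforolimus replicate 2 to 30.5 CPM in everolimus replicate 2. CCNB2, cyclin B2, was not lowest there: it had 67.1 CPM in ridaforolimus replicate 2, below it 64.0 CPM in everolimus replicate 1 and in parental replicate 1, and 144 CPM in everolimus replicate 2.

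**Figure D4:**
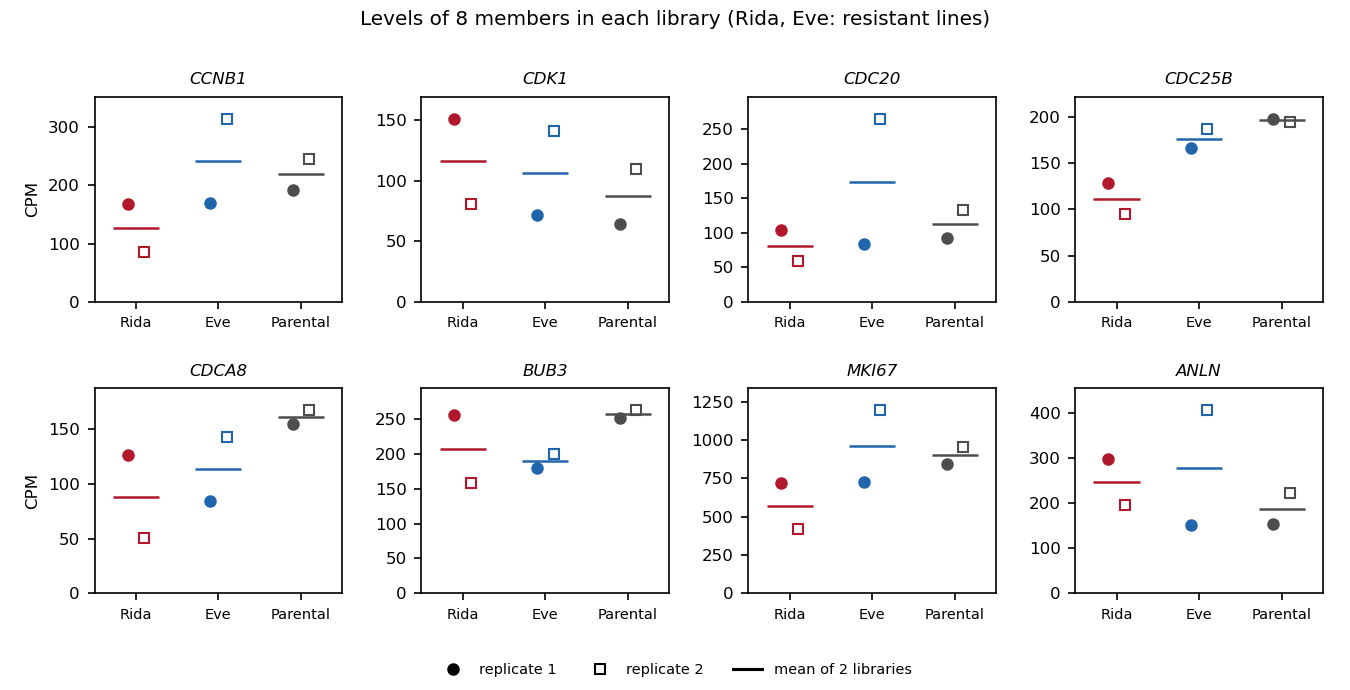
CPM on a linear axis from 0 for 8 members in ridaforolimus-resistant, everolimus-resistant and parental libraries; filled circles are replicate 1, open squares replicate 2, and lines the mean of 2 libraries. CDC25B alone of the 8 keeps the replicates of each group apart from those of the other groups, and in CDC20 the everolimus libraries lie at 83.3 and 266 CPM.

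Among the kinases, PLK1, polo-like kinase 1, had 111 and 56.3 CPM in ridaforolimus, 80.6 and 161 CPM in everolimus, and 89.4 and 126 CPM in parental libraries. AURKA, the spindle-pole Aurora kinase, had 143 and 78.7 CPM in ridaforolimus, 89.7 and 196 CPM in everolimus, and 128 and 184 CPM in parental libraries. Both show the order of the whole list, lowest in ridaforolimus replicate 2 and highest in everolimus replicate 2. TPX2, the microtubule protein that activates Aurora A, had 268 to 647 CPM over the 6 libraries. The 3 genes of this role had a median log2 fold change of -0.36 in ridaforolimus-resistant against parental, -0.01 in everolimus-resistant against parental and -0.37 in ridaforolimus-resistant against everolimus-resistant cells.

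The chromosomal passenger complex corrects wrong attachments of chromosomes to the spindle, and 4 of its genes are members. CDCA8 (ENSG00000134690, chr1:37692418-37709719), which encodes borealin, had 126 and 50.6 CPM in ridaforolimus, 83.9 and 143 CPM in everolimus, and 155 and 167 CPM in parental libraries. Both derivatives were below the parental range. The log2 fold change of CDCA8 was -0.87 ± 0.41 (adjusted p = 0.375, edgeR's quasi-likelihood test) in ridaforolimus-resistant and -0.51 ± 0.41 (adjusted p = 0.765) in everolimus-resistant against parental cells. AURKB, the kinase of the complex, had 104 and 53.3 CPM in ridaforolimus, 52.8 and 123 CPM in everolimus, and 75.2 and 108 CPM in parental libraries. BIRC5, survivin, had 135 and 59.5 CPM in ridaforolimus, 98.1 and 181 CPM in everolimus, and 121 and 162 CPM in parental libraries. In neither did any pair of groups separate, nor did it in INCENP, the scaffold of the complex, at 96.9 to 210 CPM.

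Each of the 5 spindle assembly checkpoint genes had its lowest level in ridaforolimus replicate 2. BUB3 (ENSG00000154473, chr10:123154277-123170467), which carries checkpoint proteins to the kinetochore, had 256 and 159 CPM in ridaforolimus, 180 and 200 CPM in everolimus, and 251 and 263 CPM in parental libraries. The everolimus libraries are both below the parental ones, and they differ from each other by 1.11 times, the smallest everolimus ratio of the list. In everolimus-resistant against parental cells it stood at -0.44 ± 0.25 on the log2 scale (adjusted p = 0.658, edgeR's quasi-likelihood test). BUB1, a checkpoint kinase, had 142 and 78.1 CPM in ridaforolimus, 101 and 191 CPM in everolimus, and 103 and 160 CPM in parental libraries. MAD2L1, which encodes the APC/C inhibitor MAD2, had 54.5 and 21.3 CPM in ridaforolimus, 34.8 and 63.7 CPM in everolimus, and 48.0 and 66.7 CPM in parental libraries. The groups overlap in both, as they do in BUB1B and TTK.

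Of the genes that start anaphase, CDC20, the activator of the APC/C in mitosis, differed most between the everolimus replicates. It had 104 and 58.6 CPM in ridaforolimus, 83.3 and 266 CPM in everolimus, and 92.7 and 133 CPM in parental libraries. Everolimus replicate 2 is 3.19 times replicate 1, and replicate 1 lies within the ridaforolimus range. The log2 fold change in ridaforolimus-resistant against everolimus-resistant cells, the lowest of any member, was -1.10 ± 0.50 (adjusted p = 0.379, edgeR's quasi-likelihood test), and it was -0.03 to -1.72 with 1 library left out. UBE2C, the ubiquitin-conjugating enzyme of the APC/C, had 201 and 94.4 CPM in ridaforolimus, 138 and 235 CPM in everolimus, and 229 and 247 CPM in parental libraries, and its log2 fold change in ridaforolimus-resistant against parental cells was -0.69 ± 0.37 (adjusted p = 0.435, edgeR's quasi-likelihood test). PTTG1, securin, had 79.5 and 51.4 CPM in ridaforolimus, 56.4 and 123 CPM in everolimus, and 64.7 and 81.8 CPM in parental libraries. It overlaps in every comparison, as does ESPL1, the separase that securin inhibits.

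The 7 centromere and kinetochore members had medians of -0.38, -0.03 and -0.46 in ridaforolimus-resistant against parental, everolimus-resistant against parental and ridaforolimus-resistant against everolimus-resistant cells, and the groups overlapped for each of the 7 in each comparison. CENPA, the histone H3 variant of the centromere, had 40.0 and 16.6 CPM in ridaforolimus, 27.1 and 38.2 CPM in everolimus, and 29.9 and 43.7 CPM in parental libraries. CENPF, a large kinetochore protein of G2, had 626 and 351 CPM in ridaforolimus, 490 and 854 CPM in everolimus, and 427 and 597 CPM in parental libraries. In CENPA the highest library is a parental one and in CENPF everolimus replicate 2, and in both the lowest is ridaforolimus replicate 2. NDC80, NUF2 and SPC25, subunits of the complex that grips microtubules, were likewise lowest in ridaforolimus replicate 2.

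Among the genes of chromosome structure, MKI67 (ENSG00000148773, chr10:128096659-128126385), the proliferation marker Ki-67 that coats mitotic chromosomes, had 720 and 418 CPM in ridaforolimus, 728 and 1196 CPM in everolimus, and 845 and 954 CPM in parental libraries. Both ridaforolimus libraries are below all 4 others, replicate 1 by a narrow gap to everolimus replicate 1. Its log2 fold change was -0.66 ± 0.32 against parental cells (adjusted p = 0.390) and -0.76 ± 0.32 against everolimus-resistant cells (adjusted p = 0.347) by edgeR's quasi-likelihood test. TOP2A, the topoisomerase that untangles sister chromatids, had 646 and 364 CPM in ridaforolimus, 504 and 774 CPM in everolimus, and 495 and 627 CPM in parental libraries. SMC4, the core of both condensins, had 395 and 183 CPM in ridaforolimus, 236 and 311 CPM in everolimus, and 275 and 292 CPM in parental libraries. In SMC4 the highest and the lowest library are both ridaforolimus ones.

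The spindle and cytokinesis genes were the most mixed, and 4 of the 7 had an estimate above 0 in ridaforolimus-resistant against parental cells (median 0.04). The 4 were ANLN, ECT2, NUSAP1 and PRC1. NUSAP1 and PRC1 were measured at very low levels and are uncertain, so the count and the median rest partly on them. ANLN, anillin, which scaffolds the contractile ring, had 298 and 197 CPM in ridaforolimus, 152 and 407 CPM in everolimus, and 153 and 222 CPM in parental libraries. ECT2, the exchange factor that activates RhoA at the division plane, had 354 and 194 CPM in ridaforolimus, 193 and 279 CPM in everolimus, and 237 and 297 CPM in parental libraries. The groups overlap in both. The log2 fold change of ECT2 in ridaforolimus-resistant against everolimus-resistant cells, the highest of that comparison, was 0.22 ± 0.32 (adjusted p = 0.814, edgeR's quasi-likelihood test), and it was -0.29 without ridaforolimus replicate 1 and -0.03 without everolimus replicate 1. HMMR, a hyaluronan-binding spindle protein, had 49.5 and 20.7 CPM in ridaforolimus, 29.6 and 37.8 CPM in everolimus, and 43.2 and 51.8 CPM in parental libraries, with a log2 fold change of -0.50 ± 0.37 (adjusted p = 0.744, edgeR's quasi-likelihood test) in everolimus-resistant against parental cells. DLGAP5, which stabilises spindle fibres, had 160 and 80.0 CPM in ridaforolimus, 129 and 219 CPM in everolimus, and 162 and 223 CPM in parental libraries, and -0.68 ± 0.37 (adjusted p = 0.444, edgeR's quasi-likelihood test) in ridaforolimus-resistant against parental cells.

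NUSAP1 and PRC1, which bundle spindle microtubules, were measured at very low levels. NUSAP1 had 3.28 and 1.39 CPM in ridaforolimus, 2.25 and 3.17 CPM in everolimus, and 1.22 and 2.04 CPM in parental libraries. The log2 fold change of NUSAP1 was 0.50 ± 0.51 (adjusted p = 0.696, edgeR's quasi-likelihood test) in ridaforolimus-resistant against parental cells, -0.25 without ridaforolimus replicate 1, and 0.73 ± 0.50 (adjusted p = 0.729) in everolimus-resistant against parental cells. Per length, NUSAP1 and PRC1 averaged 2.16 and 2.14 TPM, a transcript share scaled to exon length, while the other members ran from CDC25C at 18.6 TPM to UBE2C at 408 TPM. In GENCODE 29, NUSAP1 shares 1787 exonic bases with another gene on the same strand and PRC1 shares 3181, and BUB1B and CENPA share 457 and 138. The part of this overlap in the 4 levels was not tested, and they are uncertain; 12 members in all overlap exons of a gene on the opposite strand.

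Taken relative to the median of the 45 in the same library, the members varied far less. The median standard deviation over the 6 libraries was 0.51 on the log2 CPM scale as measured and 0.20 relative to the members' median, a ratio within each library that its scaling does not touch. The members named next were chosen after their values were seen, as those with the highest and the lowest relative difference between ridaforolimus and parental libraries apart from the scarce NUSAP1, and were not tested. Relative log2 levels of CDK1 were 0.39 and 0.52 in ridaforolimus, -0.18 and -0.01 in everolimus, and -0.56 and -0.16 in parental libraries. Those of ANLN were 0.18 and 0.61, -0.29 and 0.32, and -0.49 and -0.33 in the same order of groups. CDK1 and ANLN held a larger place within the list in both ridaforolimus libraries than in both parental ones. So did other members, among them CCNB2, BUB1B, ECT2, SMC4 and ESPL1. For CDCA8 the relative levels were -0.07 and -0.35 in ridaforolimus, -0.15 and -0.19 in everolimus, and 0.52 and 0.25 in parental libraries, and for CCNB1 they were -0.35 and -0.30, 0.16 and 0.25, and 0.13 and 0.11. CDCA8 was lower within the list in both derivatives, and CCNB1 in the ridaforolimus libraries. Other members, among them NDC80, UBE2C, MYBL2 and DLGAP5, were also lower in both ridaforolimus libraries than in both parental ones. Such separation is therefore not particular to the genes whose values are given.

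Other genes of the cell-cycle machinery followed the members to differing degrees, and none of them passed the threshold in any comparison by edgeR's quasi-likelihood test. At an unadjusted p under 0.05 a mixed list of brakes on mitotic entry and other cell-cycle inhibitors held 4 of 18 genes (22.2%) in ridaforolimus-resistant against parental, 5 (27.8%) in everolimus-resistant against parental and 4 (22.2%) in ridaforolimus-resistant against everolimus-resistant cells, against 14.5%, 8.79% and 14.1% of all genes. This list, like the others, was chosen with earlier results of these data known, so its share cannot serve as a test. The genes of the list went both ways. Log2 fold changes against parental cells were 0.77 for RBL2 and -1.06 for CDKN1C in ridaforolimus-resistant cells. In everolimus-resistant cells they were 1.36 for WEE1 and -1.06 for CDKN1A. The other 6 lists held 2.7% to 7.69%, 0% to 6.25% and 0% to 12.5% in the same comparisons. The 29 other kinetochore genes had medians of centred log2 CPM of 0.17 and -0.65 in ridaforolimus, -0.11 and 0.54 in everolimus, and -0.16 and 0.23 in parental libraries, and the 27 other mitotic kinases and entry regulators 0.18 and -0.62, -0.33 and 0.52, and -0.08 and 0.33. The 37 genes of G1/S and replication, which act before G2, had 0.29 and -0.74, -0.48 and 0.89, and -0.24 and 0.29. In all 3 lists the same libraries were low and high as for the members, with the widest range in the G1/S list. The 17 APC/C genes ran from -0.30 in ridaforolimus replicate 2 to 0.16 in everolimus replicate 2. The 18 brakes and cell-cycle inhibitors that could be tested ran from -0.11 in ridaforolimus replicate 2 to 0.14 in parental replicate 2. The 16 other condensin and cohesin genes lay between -0.46 and 0.36, and a list of 13 DREAM, MuvB and NF-Y genes between -0.23 and 0.29. Both lists were lowest in ridaforolimus replicate 2 and highest in everolimus replicate 2. The list of 13 holds NFYA, NFYB and NFYC of NF-Y, and MYBL1, while RBL1 and RBL2 are counted with the brakes.

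**Figure D5:**
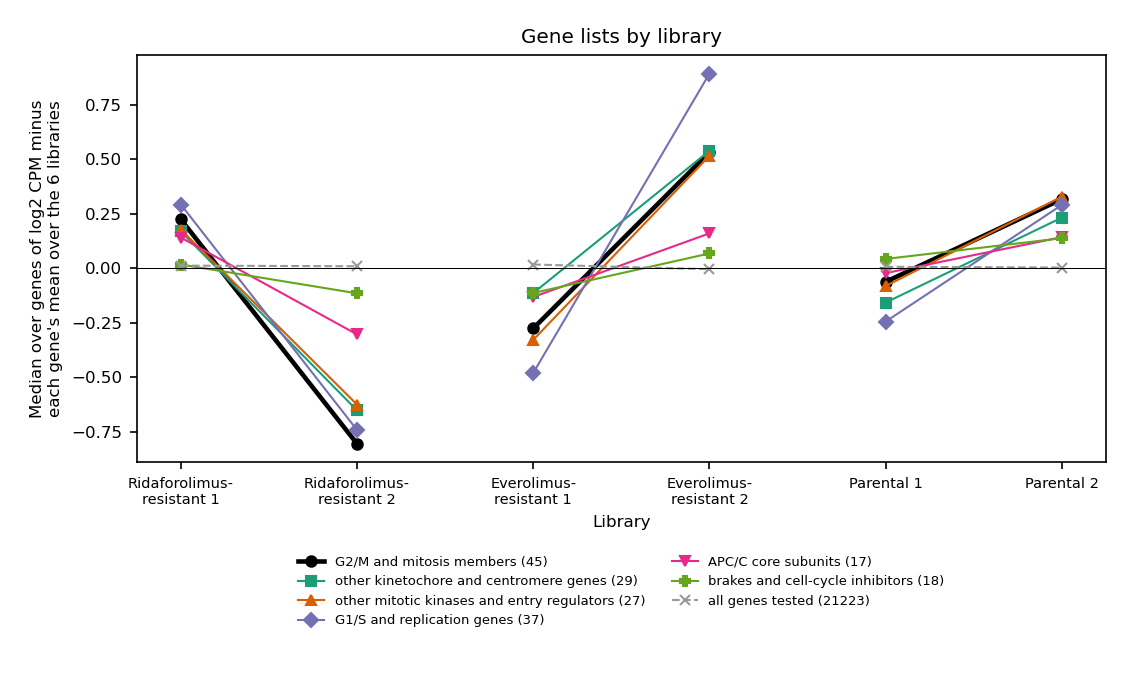
Median over each gene list of log2 CPM minus each gene's mean over the 6 libraries (vertical axis) for the 6 libraries, with lines joining the 2 libraries of a group; black is the 45 members, grey all 21223 genes tested. The members, the other mitotic lists and the G1/S list fall and climb together, from -0.80 to 0.53 for the members. The median of all genes stays near 0, where library scaling itself holds it.

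Of the brakes and partners outside the list, WEE1, the kinase that holds CDK1 inactive, had 113 and 154 CPM in ridaforolimus, 207 and 250 CPM in everolimus, and 80.1 and 98.2 CPM in parental libraries. The groups do not overlap, and the order of WEE1 is unlike that of the members. Of all genes, 49.4% did not overlap in ridaforolimus-resistant against parental cells. The shares were 41.1% in everolimus-resistant against parental and 41.2% in ridaforolimus-resistant against everolimus-resistant cells. The log2 fold change of WEE1 was 1.36 ± 0.23 (adjusted p = 0.205, edgeR's quasi-likelihood test, and 0.000342 with DESeq2) in everolimus-resistant against parental and -0.78 ± 0.23 (adjusted p = 0.178) in ridaforolimus-resistant against everolimus-resistant cells. CDKN1A, the CDK inhibitor p21, stood at -1.06 ± 0.30 (adjusted p = 0.439, edgeR's quasi-likelihood test) in everolimus-resistant against parental cells. The DREAM subunits RBL2, a pocket protein, and TFDP2, a partner of E2F, had log2 fold changes of 0.77 ± 0.21 (adjusted p = 0.178) and 0.83 ± 0.18 (adjusted p = 0.107, and 0.00905 with DESeq2) in ridaforolimus-resistant against parental cells by edgeR's quasi-likelihood test. Both had their ridaforolimus libraries above the parental ones, as 25.1% of all genes did. The cohesin subunit STAG2 stood at -0.83 ± 0.19 (adjusted p = 0.129, edgeR's quasi-likelihood test, and 0.0175 with DESeq2) and the APC/C enzyme UBE2S at -1.04 ± 0.38 (adjusted p = 0.278) in the same comparison.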

How the data were processed

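RNA sequencing of 6 libraries (3 groups of 2) gave raw read counts per Ensembl gene, deposited by the authors with no normalisation. Per the labels' protocols, libraries were made with a stranded mRNA kit. The submitters' processing notes name HTSeq 0.13.5, STAR 2.7.9a, DESeq2 and Trim Galore 0.6.6, with build GRCh38; the annotation release and strand setting of the counting are not stated there or in the labels.

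Symbols were matched to IDs through a separate reference of gene names, and positions and exon lengths came from GENCODE 29. IDs absent from GENCODE 29 had no exon length and were left out of TPM. CPM were taken on library sizes with TMM factors, and TPM per exon length. Log2 CPM used a prior count of 2. Main tests were edgeR 4.0.16 (R 4.3.3) quasi-likelihood tests over 3 groups with 3 residual degrees of freedom, filterByExpr, and Benjamini-Hochberg adjustment over 21223 genes at 0.05; 28459 IDs had no count. Alternatives were other scaling and filters, DESeq2 1.42.0, limma-voom 3.58.1, only the groups compared, a replicate block and each library left out.

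The members and the other gene lists were chosen with earlier results of these data known. Library values are given for 23 members named by role and for the 3 with the lowest unadjusted p in each comparison; UBE2C, HMMR, DLGAP5 and ECT2 were added after their values were seen, for separated groups or an extreme estimate. Other genes are among the 2 with the lowest p of their list.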

Additional observations from a re-analysis of the deposited data

How the results depend on the processing

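With 2 libraries a group and 3 residual degrees of freedom the tests reach few genes, an exact permutation test could not go below p = 0.333, and a p that misses the threshold does not show that levels were equal. In fits that leave out a library, the lone library of its group is assumed to vary like the others.

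In 0 of these leave-out fits did a member pass the threshold. The median log2 fold change of the members ran from -0.96 to 0.08 (ridaforolimus against parental), -0.42 to 0.41 (everolimus against parental) and -0.97 to 0.10 (ridaforolimus against everolimus). With upper-quartile factors the median of all genes in ridaforolimus against parental cells was 0.11 and that of the members -0.24, with 33 of 45 below 0. Without the low-count filter 3 members passed in ridaforolimus against parental cells, CDC25B (-0.83, adjusted p = 0.0236), CCNB1 (-0.80, 0.0310) and CDCA8 (-0.87, 0.0154), and 3 in ridaforolimus against everolimus cells, CDC20 (-1.10, 0.000465), CCNB1 (-0.94, 0.00432) and MKI67 (-0.76, 0.0229), in edgeR's test. With DESeq2 1 passed in ridaforolimus against parental cells. The cause of these differences was not tested.

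Over all genes, 68 passed in ridaforolimus against parental cells, and 1195 without the filter, 574 with DESeq2, 127 with only the 2 groups, 28 with the replicate block and 1 to 276 with a library left out. For ridaforolimus against everolimus cells 158 passed, and 1362 without the filter, 657 with DESeq2, 81 at 5 CPM or more in 2 libraries, 0 with only the 2 groups, 49 with the replicate block and 19 to 123 with a library left out. For everolimus against parental cells 1 passed, and 493 without the filter, 150 with DESeq2, 0 with upper-quartile factors, at 5 CPM or more, with only the 2 groups or with the replicate block, and 0 to 3 with a library left out. Same-numbered libraries of different groups had correlations of their deviations of -0.378 (ridaforolimus and parental), 0.511 (everolimus and parental) and -0.363 (ridaforolimus and everolimus). These mix any shared culture or day with other differences between replicates, so they cannot tell whether the numbers pair the libraries.

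Of 292 single values of members under alternatives 276 kept sign and side of the threshold, 7 passed it (6 without the filter, 1 with DESeq2), and 9 took the other sign, all with a library left out. The ranges over libraries left out were -0.11 to 0.85 for CDK1 and -0.25 to 1.00 for NUSAP1 in ridaforolimus against parental, -0.28 to 0.73 for CDK1 and -0.17 to 1.13 for FOXM1 in everolimus against parental, and -0.40 to 0.69 for CDK1 and -0.29 to 0.60 for ECT2 in ridaforolimus against everolimus cells. Of 588 values of other named genes 564 kept sign and side, 21 passed (16 without the filter, 5 with DESeq2) and 3 took the other sign. The ranges in everolimus against parental cells were -0.013 to 0.72 for CKAP2, -0.57 to 1.45 for CDCA3 and -0.15 to 1.47 for CCNE1.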
